A study of Cucumis sativus with 8 samples.

Results

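A total of 107 genes, of 17783 in the deposited table, were close to silent in the leaf midveins of wild-type (WT) cucumber and expressed in the midveins of CsIVP-RNAi plants. They were chosen by their vein values: at most 0.3 RPM (the reads of a gene scaled to a fixed library total) in both WT vein libraries and at least 1 RPM in both RNAi vein libraries. These genes are 0.602% of the table, and the mirrored rule (at least 1 RPM in both WT veins, at most 0.3 in both RNAi veins) was met by 4 genes, or 0.0225%. Because the vein contrast chose the genes, their vein values are given as a description, without a test. The fruit libraries played no part in the choice, and the comparison of RNAi fruit with WT fruit was tested. The main fit estimated the spread of each gene from all 8 libraries. Its p-values for these genes thus rest partly on the vein libraries that chose them.

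CsIVP is a basic helix-loop-helix transcription factor expressed in the vasculature, and the study lowered it by RNA interference to ask what it does in vein development and in resistance to downy mildew. The labels give both genotypes the background of inbred line 1461 (the study's methods call the line R1461), and the transgenic plants carry an RNAi construct with a fragment of CsIVP (named CsIND in the labels). The study's text places the RNAi libraries in 1 transgenic line, R5, described as mild, so effects of the insertion in that line and of the RNAi cannot be told apart. Midveins were dissected from the youngest expanded leaves, and fruits were taken 4 d before anthesis. Each of the 4 groups (WT vein, RNAi vein, WT fruit, RNAi fruit) had 2 replicate libraries, called biological replicates by the submitters, who do not say how many plants each held. In these bulk samples, fewer cells of a type and less RNA per cell cannot be told apart.

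Plant cells keep many stress and defense genes at very low levels and switch them on within a short time of cold, wounding or attack by a pathogen. Transcription factors of the ERF/C-repeat binding, NAC and MYB families act early, and downstream of them come enzymes that make phenolic compounds and terpenes, secreted proteins directed at microbes, and enzymes that detoxify reactive compounds. Veins hold the conducting phloem and xylem, and lignin, an end product of the phenylpropanoid pathway, stiffens the walls of xylem cells.

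The 8 libraries held 18088985 to 22979345 reads, so that 1 read was worth 0.0435 to 0.0553 RPM. A count of 0 reads allows up to 3 reads, which is 0.131 to 0.166 RPM, for counting error only. The RNAi target, CsIVP (Csa6G483450), was at 0 reads in all 4 vein libraries, so the vein labels could not be checked by it. In fruit it had 50.0 and 38.3 RPM in the libraries labelled WT and 42.3 and 52.1 RPM in those labelled RNAi, overlapping groups with no lower level in RNAi (log2 difference 0.10, SE 0.21, limma adjusted p = 1.00). The measured target thus did not show the lower level that the RNAi label implies, and does not bear out the fruit labels. For line R5, the study reported less CsIVP transcript by qRT-PCR and less CsIVP protein by immunoblot, measured apart from these libraries. Throughout, RNAi vein and RNAi fruit mean the libraries labelled so, every direction given for RNAi included. Markers of the conducting tissue were present in the veins. The 7 phloem genes summed to 141 and 123 RPM in WT vein and 144 and 132 RPM in RNAi vein. The 4 xylem genes summed to 22.8 and 19.8 RPM in WT vein and 18.1 and 9.27 RPM in RNAi vein. They do not set vein apart from fruit. In WT fruit the phloem genes summed to 175 and 142 RPM and the xylem genes to 20.8 and 24.5 RPM. Within these sums, 6 of the 7 phloem genes were higher in both RNAi veins than in both WT veins and 1 was lower (Csa2G193340, a sieve element occlusion gene, at 109 and 89.4 RPM in WT and 23.5 and 19.5 RPM in RNAi). Of the 4 xylem genes, 3 were lower in both RNAi veins and laccase 11 was higher, and no marker was at 0. All of these markers are in the study's list of genes changed in these veins, which holds both directions. That they differ between the genotypes thus follows from that choice. The markers are no measure of tissue composition, whose part in the values below was not tested.

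Summed over the 107 genes, the levels were 11.1 and 12.4 RPM in WT vein, 1427 and 712 RPM in RNAi vein, 171 and 90.2 RPM in WT fruit, and 445 and 233 RPM in RNAi fruit. The group was thus highest in RNAi vein, next in RNAi fruit and lowest in WT vein. Its median member had 0.111 and 0.0964 RPM in WT vein and 7.92 and 4.48 RPM in RNAi vein, against a median over all genes of 17.7 to 23.6 RPM in the same 4 libraries. Even where these genes were on, most remained below the typical gene: 39 of 107 had a mean above 10 RPM in RNAi vein. WT vein values rested on at most 6 reads per library, and 63 genes had at most 3 reads in each WT vein library, whereas every RNAi vein value rested on at least 19 reads. The heatmap of levels sets the 107 genes out by annotation group.

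**Figure D1:**
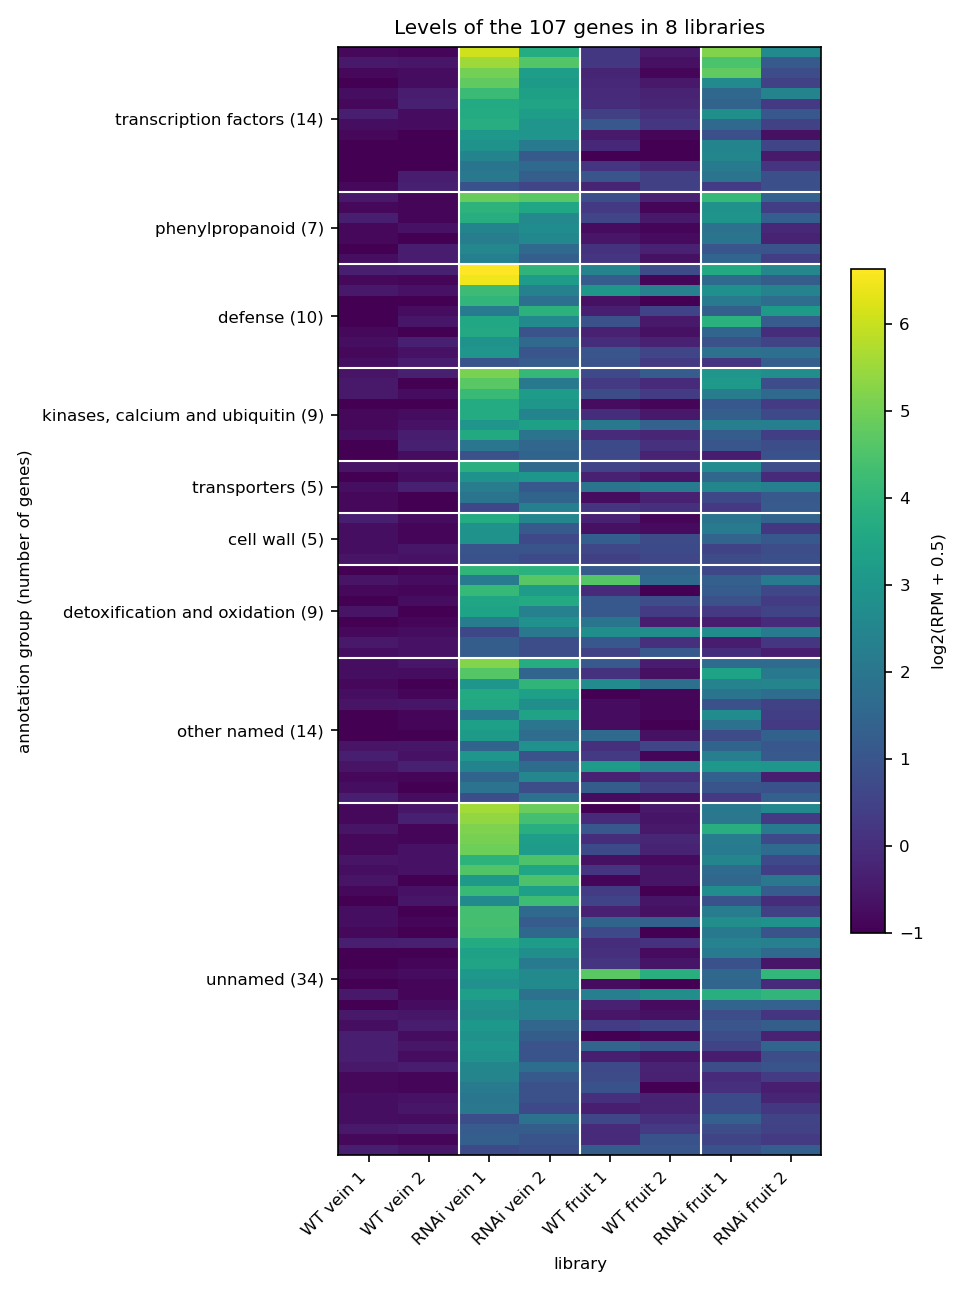
Level of each of the 107 genes (rows) in each of 8 libraries (columns) as log2(RPM + 0.5), ordered within each annotation group by the mean of RNAi vein. The dark WT vein columns and the bright RNAi vein columns follow from the choice of genes; in the fruit columns, which were not used to choose, RNAi fruit is brighter than WT fruit in most groups except detoxification and oxidation.

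By the annotation in the study's gene tables, 73 of the genes carry a name and 34 do not. The named ones fall into 14 transcription factors, 7 phenylpropanoid enzymes, 10 defense genes, 9 genes of kinases, calcium binding and ubiquitin ligation, 5 transporters, 5 cell wall genes, 9 genes of detoxification and oxidation, and 14 others. The names follow those of Arabidopsis genes, and the roles given here are known mainly from that species.

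For most of the 107 genes, the libraries labelled RNAi were the higher ones in fruit. Both RNAi fruit libraries were above both WT fruit libraries in 73 genes (68.2%), against 23.2% of the 17778 genes tested, and both were below in 3 genes (2.80%), against 23.4%. The median difference between RNAi and WT fruit was 1.22 on the log2(RPM + 0.5) scale (quartiles 0.45 and 1.92), against -0.01 for all genes tested (quartiles -0.14 and 0.13), and 61 genes (57.0%) were at least 2-fold higher on that scale, against 3.12% of all genes. The set of all genes was not matched to the members in level or in spread between replicates. After adding 0.5 RPM, the RNAi fruit replicates were over 2-fold apart in 43.9% of members and 2.36% of all genes. For WT fruit these shares were 16.8% and 1.59%. The part of this spread in the contrast above was not tested. The mean was higher in RNAi fruit in 92 of the genes and lower in 15. Few members passed the test gene by gene. Here and below, a gene is called by limma over all 8 libraries unless another fit is named. By limma with Benjamini-Hochberg adjustment over all genes tested, 3 members rose and none fell at adjusted p under 0.05 and at least 2-fold (0.422% of all genes rose and 0.0506% fell). At an unadjusted p under 0.05, 44 members were higher and 2 were lower in RNAi fruit, against 4.77% and 2.04% of all genes. All 107 genes had passed the filter on low values through their RNAi vein libraries, which are not part of this comparison.

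The count of calls moved with the fit, although the 3 calls stood under several of them. A fit to the 4 fruit libraries alone, which leaves out every library of the rule, called 10 members up (1.07% of all genes). The exact test of edgeR on the recovered reads called 43 (2.67%) and DESeq2 called 30 (1.83%). On the simulated data described below, the exact test made 93 false calls and DESeq2 68, against 17 by limma over 8 libraries. No fit called a member down. Leaving out any 1 fruit library leaves 1 library in its group, so a count of calls from those fits says nothing of the members. Leaving out either WT vein library left no member among 14 genes called up, and leaving out either RNAi vein library gave 18 members among 305 or 306.

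**Figure D2:**
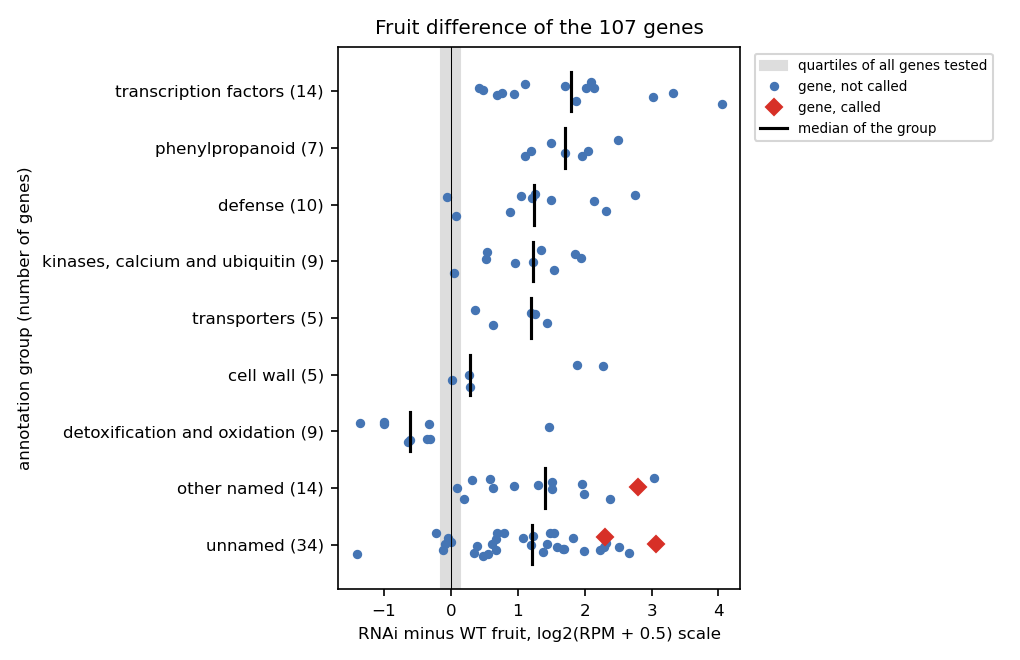
Difference between RNAi and WT fruit for each of the 107 genes on the log2(RPM + 0.5) scale, by annotation group. Points are genes, diamonds the 3 genes called, black bars the group medians, and the grey band the quartiles of all genes tested (-0.14 and 0.13); the median is below 0 in the group of detoxification and oxidation and above 0 in the other groups.

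The first of the genes called in fruit was Csa2G361350, annotated as a GNS1/SUR4 membrane protein, a family of enzymes that elongate very long chain fatty acids in yeast. It had 0 and 0.0435 RPM in WT fruit and 3.43 and 2.85 RPM in RNAi fruit. The groups did not overlap, and the replicates lay close together (log2 difference 2.80, SE 0.23, limma adjusted p = 0.0176). In vein it had 0.111 and 0.0482 RPM in WT and 12.3 and 9.43 RPM in RNAi. The unnamed gene Csa3G002410 had 0 and 0.218 RPM in WT fruit and 3.75 and 5.38 RPM in RNAi fruit (log2 difference 3.06, SE 0.34, limma adjusted p = 0.0259). In vein, where it was the highest unnamed gene, it had 0.0553 and 0.193 RPM in WT and 47.2 and 28.9 RPM in RNAi. The unnamed gene Csa2G129170 had 0.501 and 0.566 RPM in WT fruit and 4.68 and 4.51 RPM in RNAi fruit (log2 difference 2.30, SE 0.23, limma adjusted p = 0.0217). Without 1 fruit library, limma's adjusted p of these 3 genes lay between 0.0692 and 0.183, and without 1 WT vein library between 0.0549 and 0.0820. No alternative gave any of the 3 genes an adjusted p above 0.183.

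The cutoffs that chose the genes in vein were also applied to fruit. They were met there by 5 members, among 14 genes of the whole table (0.0787% of genes tested). Members low in both WT fruit libraries numbered 19, and of all 76 genes that were low there, 18.4% met the cutoffs. The 5 genes were Csa2G361350, Csa3G002410, terpene synthase 21 (Csa3G039850), and the unnamed Csa1G568480 and Csa4G022280, the last 2 named here after their values were seen. No other gene of the table was at most 0.3 RPM in all 4 WT libraries and at least 1 RPM in all 4 RNAi libraries. Csa1G568480 had 14.8 and 22.3 RPM in RNAi vein and 5.11 and 1.10 RPM in RNAi fruit, with 0.087 to 0.166 RPM in the 4 WT libraries. Csa4G022280 had 8.30 and 22.4 RPM in RNAi vein and 2.39 and 3.68 RPM in RNAi fruit, with 0 to 0.174 RPM in the WT libraries.

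At the other end, 19 members were at 1 RPM or more in both WT fruit libraries, so that being low in WT was limited to vein for them, and 69 lay between the cutoffs or were split by them. No member was at most 0.3 RPM in all 4 fruit libraries. At least 1 RPM in at least 2 fruit libraries was reached by 66 members (61.7%), against 98.1% of all genes tested, and the median difference over those 66 was 1.36.

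**Figure D3:**
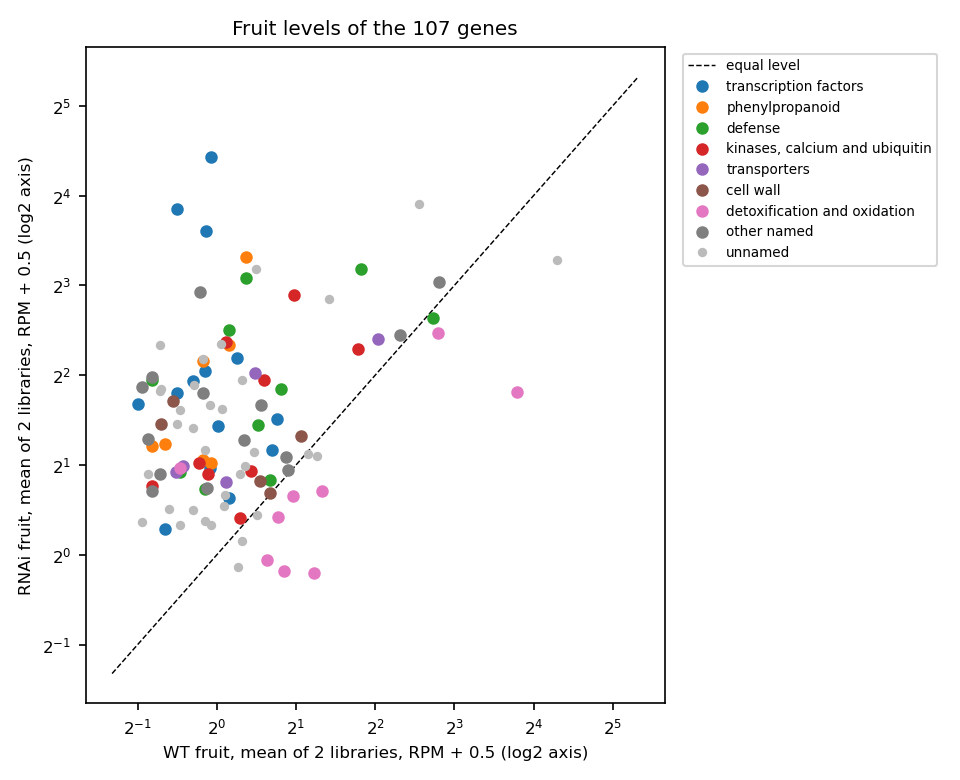
Mean RPM + 0.5 of 2 RNAi fruit libraries against that of 2 WT fruit libraries for the 107 genes, both axes on a log2 scale, coloured by annotation group. Most points (92) lie above the dashed line of equal level, and 8 of the 9 genes of detoxification and oxidation lie below it.

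All 14 transcription factors had a higher mean in RNAi fruit than in WT fruit. In 9, both RNAi libraries were above both WT libraries (all genes tested, 23.2%). None was called by limma over 8 libraries, 1 by limma over the fruit libraries alone, and 7 each by DESeq2 and by edgeR's exact test. The shares of all genes called up were 0.422%, 1.07%, 1.83% and 2.67% in that order, here and for each group below. The median difference of the transcription factors in fruit was 1.79 on the log2 scale. The highest in RNAi vein was redox responsive transcription factor 1 (Csa3G207390), an ERF-type regulator that responds to reactive oxygen in Arabidopsis. It had 0.0553 and 0.0482 RPM in WT vein, 67.8 and 12.8 RPM in RNAi vein, 0.683 and 0.218 RPM in WT fruit, and 36.2 and 5.84 RPM in RNAi fruit. RNAi fruit exceeded WT fruit in both libraries, but its replicates were far apart, and the difference of 4.05 (SE 0.98), the largest among the 107 genes, was not called (limma adjusted p = 0.260). A second gene of the same name, Csa7G073700, was the only member with 0 reads in all 4 WT libraries. It had 4.94 and 1.74 RPM in RNAi vein and 5.17 and 0.230 RPM in RNAi fruit.

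NAC domain containing protein 90 (Csa6G425720), of a plant-specific family with roles in senescence and defense, is the member whose transcript the study also assayed by qRT-PCR. The primers that define that amplicon are shown because they are the sequences tied to a member in the sources used here:
CsNAC90-Q-F: gcgacagggtctccaacttac
CsNAC90-Q-R: gggaatgaggaggaatgatgtc
Each is written 5′ to 3′, and they are 21 and 22 bases long. The gene had 0.221 and 0.193 RPM in WT vein, 46.4 and 23.8 RPM in RNAi vein, 0.683 and 0.131 RPM in WT fruit, and 21.6 and 1.75 RPM in RNAi fruit. Both RNAi fruit values were above both WT values, with a wide gap between the RNAi replicates (log2 difference 3.03, SE 0.99, limma adjusted p = 0.508). A second member of the family, NAC domain containing protein 36 (Csa7G020910), had 17.8 and 9.53 RPM in RNAi vein and 2.50 and 4.78 RPM in RNAi fruit, against 0.455 and 0.348 RPM in WT fruit.

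C-repeat binding factors switch on cold-responsive genes, and 2 were members. C-repeat/DRE binding factor 2 (Csa3G180260) had 0.0553 and 0.0964 RPM in WT vein, 32.7 and 9.06 RPM in RNAi vein, 0.364 and 0.0435 RPM in WT fruit, and 26.6 and 1.24 RPM in RNAi fruit. C-repeat-binding factor 4 (Csa5G174570) had 0 reads in both WT veins, 7.0 and 3.95 RPM in RNAi vein, 0.410 and 0 RPM in WT fruit, and 4.95 and 1.0 RPM in RNAi fruit. In both genes RNAi replicate 1 was the higher in vein and in fruit. Sigma factor binding protein 1 (Csa2G010160) had 1 of the 3 smallest gaps between RNAi vein replicates, 7.92 and 7.43 RPM, and its fruit groups overlapped at 0.228 and 0.0435 RPM in WT and 1.31 and 0.138 RPM in RNAi. The other transcription factors were a C2H2 zinc finger, a B-box zinc finger, heat shock transcription factor B2A, ethylene-responsive element binding factor 13, myb domain protein 15 and a pair of bHLH genes, with RNAi vein means from 1.21 RPM upward.

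The phenylpropanoid group held 5 genes named phenylalanine ammonia-lyase 2, the enzyme that removes the amino group of phenylalanine at the entry to the pathway, and 2 genes named cinnamoyl coa reductase, the enzyme that commits its products to lignin monomers. All 7 had both RNAi fruit libraries above both WT fruit libraries (all genes tested, 23.2%), with a median difference of 1.70 on the log2 scale. None was called by limma, 2 were called by DESeq2 and 4 by edgeR's exact test. Csa6G445780 had 0.221 and 0.0482 RPM in WT vein, 28.7 and 25.0 RPM in RNAi vein, 1.27 and 0.305 RPM in WT fruit, and 16.7 and 2.16 RPM in RNAi fruit (log2 difference in fruit 2.50, SE 0.83, limma adjusted p = 0.522). Csa6G446280 had 14.8 and 10.7 RPM in RNAi vein and 7.07 and 0.828 RPM in RNAi fruit, against 0.728 and 0.0435 RPM in WT fruit. Csa4G008250 had 13.1 and 5.53 RPM in RNAi vein and 7.18 and 1.93 RPM in RNAi fruit, against 1.00 and 0.218 RPM in WT fruit. In each of these 3 genes the RNAi vein replicates lay closer together than the RNAi fruit replicates, of which replicate 1 was well above replicate 2. The cinnamoyl coa reductase genes Csa3G716870 and Csa3G716370 had 4.99 and 6.11 RPM and 4.18 and 5.48 RPM in RNAi vein.

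The members do not make up their families. The study's tables of genes changed in vein, which were selected on these vein libraries and of which only part was used here, hold 4 other phenylalanine ammonia-lyase genes. All 4 are listed as higher in RNAi vein. All had both RNAi fruit libraries above both WT ones (all genes tested, 23.2%), with none called by limma. Csa4G008760 and Csa4G008780, whose numbers adjoin that of the member Csa4G008770, missed the rule because of WT vein values of 0.442 and 0.482 RPM and of 0.663 and 0.627 RPM. Csa1G590300 was unlike these, already at 27.7 and 37.4 RPM in WT vein and at 165 and 256 RPM in RNAi vein. Other families went both ways in vein. Of the other expansin genes in those tables, 1 is listed as higher in RNAi vein and 5 as lower. These counts were 6 and 5 for pathogenesis-related genes and 1 and 1 for cinnamoyl coa reductase genes. They were 18 and 1 for NAC, 16 and 1 for glutathione S-transferase TAU and 6 and 1 for NB-ARC disease resistance genes. In 7 pairs of members, the ID numbers lie within 100 of each other, among them 2 phenylalanine ammonia-lyase genes, 2 glutathione S-transferase genes and 2 O-acetyltransferase genes. Such copies may share reads, and the sources used here do not say how reads that match more than 1 copy were counted, so the split between them is uncertain.

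**Figure D4:**
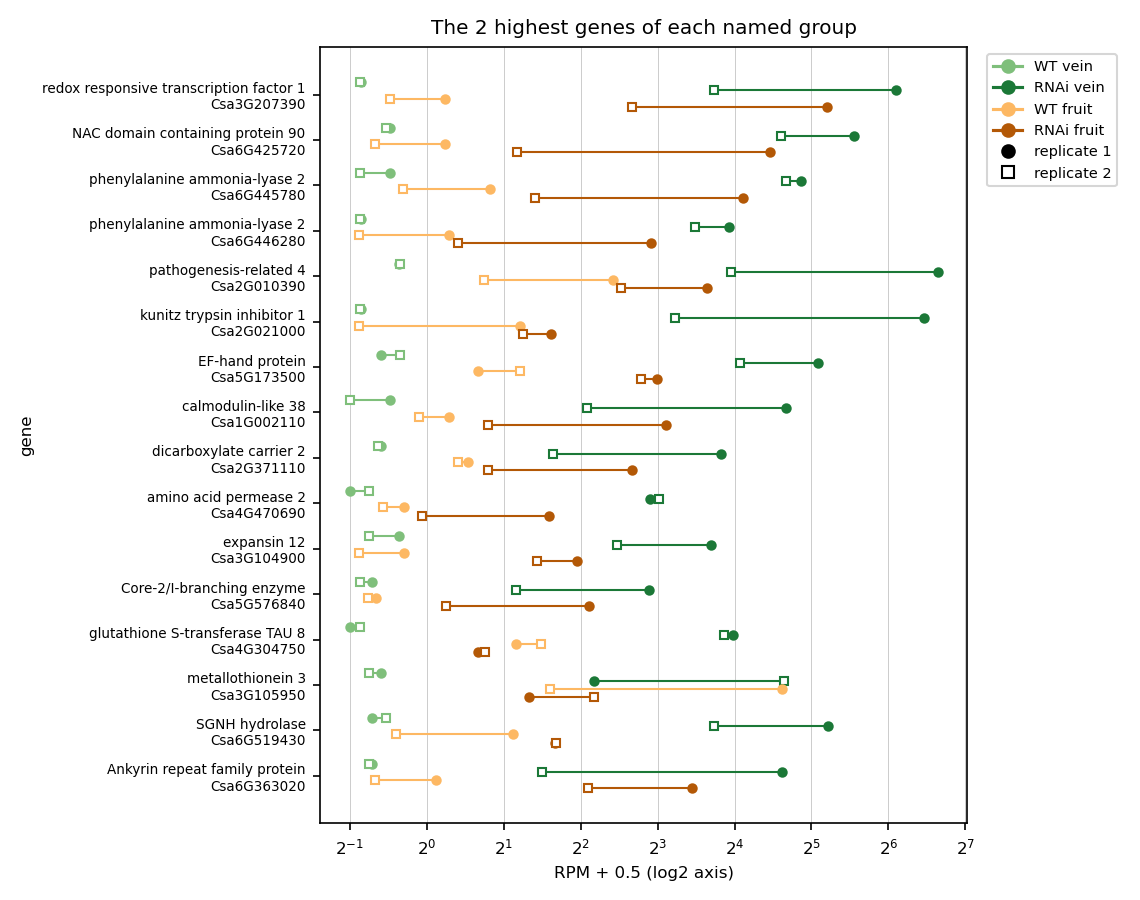
RPM + 0.5 on a log2 axis in the 4 groups for the 2 members with the highest RNAi vein mean in each named annotation group; filled circles are replicate 1, open squares replicate 2, and a line joins them. RNAi vein lies to the right of WT vein in every gene, as the rule requires, and the RNAi fruit values of glutathione S-transferase TAU 8 (1.09 and 1.20 RPM) lie to the left of its WT fruit values (1.73 and 2.31 RPM).

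Of the 10 defense genes, 9 had a higher mean in RNAi fruit. In 8, both RNAi fruit libraries were above both WT ones (all genes tested, 23.2%). None was called by limma over 8 libraries, 1 each by limma over the fruit libraries and by DESeq2, and 3 by edgeR's exact test. Pathogenesis-related 4 (Csa2G010390), a secreted chitin-binding protein, was the highest of all members in RNAi vein. It had 0.276 and 0.289 RPM in WT vein, 99.1 and 15 RPM in RNAi vein, 4.87 and 1.17 RPM in WT fruit, and 12 and 5.24 RPM in RNAi fruit. Kunitz trypsin inhibitor 1 (Csa2G021000), an inhibitor of digestive proteases, had 0.0553 and 0.0482 RPM in WT vein and 87.5 and 8.90 RPM in RNAi vein, 1 of the 3 widest gaps between RNAi vein replicates. Its fruit values were 1.82 and 0.0435 RPM in WT and 2.56 and 1.89 RPM in RNAi. The basic secretory protein gene Csa7G072800 went from 0.221 and 0.145 RPM in WT vein to 18.4 and 4.58 RPM in RNAi vein, whereas its fruit groups overlapped, at 7.69 and 4.53 RPM in WT and 6.63 and 4.83 RPM in RNAi.

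Terpene synthases make volatile and defensive terpenes, and both that were members had RNAi fruit libraries above the WT ones. Terpene synthase 21 (Csa3G039850) had 0 reads in both WT vein libraries and 15.8 and 2.95 RPM in RNAi vein, at least 60.5-fold higher by the means with 3 reads per WT library as the floor. In fruit it had 0.137 and 0 RPM in WT and 3.86 and 2.85 RPM in RNAi (log2 difference 2.76, SE 0.66, limma adjusted p = 0.250). The difference had a smaller SE (0.29) and was called in the fit to the 4 fruit libraries alone (limma adjusted p = 0.0137). Terpene synthase 14 (Csa1G066560) had replicate 2 above replicate 1 in RNAi vein (3.85 and 14.5 RPM) and in RNAi fruit (1.96 and 8.41 RPM), the reverse of most members.

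All 9 genes of kinases, calcium binding and ubiquitin ligation had a higher mean in RNAi fruit. In 8, both RNAi libraries were above both WT ones (all genes tested, 23.2%). None was called by limma over 8 libraries, 1 by limma over the fruit libraries, 2 by DESeq2 and 5 by edgeR's exact test. Calcium ions carry early signals of stress, and the highest of these genes encodes an EF-hand calcium-binding protein (Csa5G173500). It had 0.166 and 0.289 RPM in WT vein, 33.5 and 16.4 RPM in RNAi vein, 1.09 and 1.83 RPM in WT fruit, and 7.45 and 6.39 RPM in RNAi fruit. Its fruit replicates were close together, and the difference of 1.94 (SE 0.37) was not called over 8 libraries (limma adjusted p = 0.136) but was called over the 4 fruit libraries (limma adjusted p = 0.0307). Calmodulin-like 38 (Csa1G002110) had 25.0 and 3.74 RPM in RNAi vein and 8.10 and 1.24 RPM in RNAi fruit, against 0.728 and 0.435 RPM in WT fruit. The lectin protein kinase gene Csa5G648630 had 17.6 and 8.59 RPM in RNAi vein and 4.13 and 2.57 RPM in RNAi fruit, against 1.23 and 0.783 RPM in WT fruit. Pinoid-binding protein 1 (Csa1G071800), which in Arabidopsis binds the auxin-related kinase PINOID, had 0 reads in both WT veins and 12.4 and 7.80 RPM in RNAi vein, at least 65.1-fold higher by the same floor. Its fruit levels were 0.0910 and 0.0435 RPM in WT and 1.63 and 0.782 RPM in RNAi.

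The 5 transporters all had both RNAi fruit libraries above both WT ones (all genes tested, 23.2%). Their differences were 0.37 to 1.44 on the log2 scale. None was called by limma, and 1 was called by DESeq2 and 1 by edgeR's exact test. Dicarboxylate carrier 2 (Csa2G371110), of the mitochondrial carrier family, had 0.166 and 0.145 RPM in WT vein, 13.7 and 2.63 RPM in RNAi vein, 0.956 and 0.827 RPM in WT fruit, and 5.87 and 1.24 RPM in RNAi fruit. Amino acid permease 2 (Csa4G470690), which imports amino acids, had 6.94 and 7.58 RPM in RNAi vein and 2.50 and 0.460 RPM in RNAi fruit, against 0.319 and 0.174 RPM in WT fruit. Peptide transporter 5 (Csa3G732500) was expressed in WT fruit, at 3.32 and 3.87 RPM, and had 5.17 and 4.41 RPM in RNAi fruit and 4.23 and 1.63 RPM in RNAi vein.

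Among the 5 cell wall genes, the expansins, which loosen the wall during growth, had different values in fruit. None of the 5 was called by limma over 8 libraries, 1 was called by limma over the fruit libraries, and 2 each by DESeq2 and by edgeR's exact test. Expansin 12 (Csa3G104900) had 12.5 and 5.06 RPM in RNAi vein, 0.319 and 0.0435 RPM in WT fruit, and 3.37 and 2.21 RPM in RNAi fruit (log2 difference 2.28, SE 0.45, limma adjusted p = 0.158). Expansin-like B1 (Csa3G910670) had 6.89 and 1.11 RPM in RNAi vein, and its fruit groups overlapped at 1.96 and 1.22 RPM in WT and 2.34 and 1.66 RPM in RNAi. The Core-2/I-branching enzyme gene Csa5G576840 had 6.89 and 1.74 RPM in RNAi vein and 3.81 and 0.690 RPM in RNAi fruit, against 0.137 and 0.0870 RPM in WT fruit. The O-acetyltransferase gene Csa6G325390 had 1.46 and 1.47 RPM in RNAi vein, the closest pair of replicates, and 0.979 to 1.24 RPM in all 4 fruit libraries.

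Of the 9 genes of detoxification and oxidation, 8 had a lower mean in RNAi than in WT fruit, and the median difference was -0.61 on the log2 scale. In 3 (33.3%, against 23.4% of all genes tested) both RNAi libraries were below both WT libraries. None was called in either direction by limma, edgeR or DESeq2, and at an unadjusted limma p under 0.05, 2 were lower and 1 was higher. The 3 separated genes, named here after their values were seen, were the only members with that order. Glutathione S-transferase TAU 8 (Csa4G304750), which attaches glutathione to reactive compounds, had 0 and 0.0482 RPM in WT vein, 15.4 and 14.1 RPM in RNAi vein, 1.73 and 2.31 RPM in WT fruit, and 1.09 and 1.20 RPM in RNAi fruit (log2 difference in fruit -0.61, SE 0.21, limma adjusted p = 0.579). UDP-glucosyl transferase 73D1 (Csa6G448690), of a family that attaches sugars to small molecules, had 1.84 and 1.26 RPM in RNAi vein, 0.910 and 1.70 RPM in WT fruit, and 0.489 and 0.276 RPM in RNAi fruit. Nudix hydrolase 1 (Csa5G608210), which cleaves nucleoside diphosphate derivatives, had 1.08 and 3.69 RPM in RNAi vein and was higher in fruit, at 6.51 and 6.31 RPM in WT and 6.20 and 3.86 RPM in RNAi.

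Metallothionein 3 (Csa3G105950), a small metal-binding protein, had 4.01 and 24.5 RPM in RNAi vein and 24.0 and 2.52 RPM in WT fruit, with its WT fruit replicates far apart, and 2.01 and 4.0 RPM in RNAi fruit. The exception in the group was a cytochrome P450 gene (Csa5G606840), an oxidase, with 16.8 and 8.85 RPM in RNAi vein, 0.455 and 0 RPM in WT fruit, and 1.85 and 1.06 RPM in RNAi fruit. The other members named glutathione S-transferase TAU 8, Csa4G303680 and Csa4G304760, had 10.7 and 12.2 RPM and 4.18 and 6.79 RPM in RNAi vein, and neither had both RNAi fruit libraries above both WT ones. By contrast, the part of the study's tables used here holds 17 other glutathione S-transferase TAU genes. Of these, 12 had both RNAi fruit libraries above both WT ones (all genes tested, 23.2%), 1 had both below, and 2 were called. Those tables were selected on the vein libraries, and the difference between members and the others was not tested.

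Of the 14 named genes outside these groups, all had a higher mean in RNAi fruit, and 1, the GNS1/SUR4 gene, was called by limma, against 6 each by DESeq2 and by edgeR's exact test. The SGNH hydrolase gene Csa6G519430, of a family of esterases and lipases, had 36.8 and 12.9 RPM in RNAi vein, 1.68 and 0.261 RPM in WT fruit, and 2.66 and 2.71 RPM in RNAi fruit. The ankyrin repeat gene Csa6G363020 had 24.0 and 2.32 RPM in RNAi vein, a ratio of 10.3, and 10.4 and 3.77 RPM in RNAi fruit against 0.592 and 0.131 RPM in WT fruit. Tetraspanin3 (Csa1G089490), a membrane-spanning protein, had 7.59 and 15.4 RPM in RNAi vein, and its fruit groups overlapped at 5.87 and 3.05 RPM in WT and 4.84 and 5.10 RPM in RNAi. The peptidase gene Csa3G778230 was among the 3 members highest in WT fruit, at 8.65 and 4.31 RPM, and had 7.83 and 7.63 RPM in RNAi fruit and 4.99 and 2.74 RPM in RNAi vein.

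Of the 34 unnamed genes, the mean in fruit was higher in RNAi in 28. In 23, both RNAi libraries were above both WT ones (all genes tested, 23.2%). Limma called 2 of the 34, DESeq2 9 and edgeR's exact test 15. Csa2G369140 had 42.1 and 20.2 RPM in RNAi vein and 3.59 and 0.736 RPM in RNAi fruit, against 0.455 and 0.174 RPM in WT fruit. Csa6G398210 had 35.4 and 13.5 RPM in RNAi vein and 13.3 and 3.91 RPM in RNAi fruit, against 1.59 and 0.218 RPM in WT fruit. Csa6G399220 had 0 reads in both WT veins, 9.82 and 6.48 RPM in RNAi vein (at least 52.5-fold higher by the same floor), and 3.86 and 2.57 RPM in RNAi fruit against 0.546 and 0.0870 RPM in WT fruit. The highest member in WT fruit was Csa2G359890, at 24.9 and 13.2 RPM, and its RNAi fruit replicates were 2.50 and 16.0 RPM. Csa5G603380 had the widest gap in RNAi vein, 20.3 and 1.84 RPM, and close replicates in fruit, 2.23 and 2.09 RPM in WT and 6.36 and 7.04 RPM in RNAi. Csa3G126950 was low throughout, with 1.79 and 1.90 RPM in RNAi vein, 0.455 and 0.696 RPM in WT fruit, and 1.25 and 0.920 RPM in RNAi fruit.

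The RNAi vein replicates were not equally high. Replicate 1 was above replicate 2 in 83 members (77.6%, against 62.8% of all genes tested), including all 14 transcription factors, with a median ratio of 1.82 after adding 0.5 RPM (all genes, 1.12). More than 2-fold apart, after the same addition, were 53.3% of members and 14.9% of all genes. Replicate 1 was also the higher in RNAi fruit in 77 members (72.0%, against 36.7%) and in WT fruit in 84 (78.5%, against 54.3%). The groups differed in where the gap lay. Transcription factors had a median ratio of 1.71 in RNAi vein and 3.46 in RNAi fruit, phenylpropanoid enzymes 1.36 and 4.06, and defense genes 3.83 and 1.29. In RNAi fruit, 12 of 14 transcription factors and 6 of 7 phenylpropanoid genes were more than 2-fold apart, and none of the 9 genes of detoxification and oxidation was. Counting error, larger where reads are few, enters these ratios to an extent that was not tested. Whether the higher replicates differed in handling, stage or composition was not tested.

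**Figure D5:**
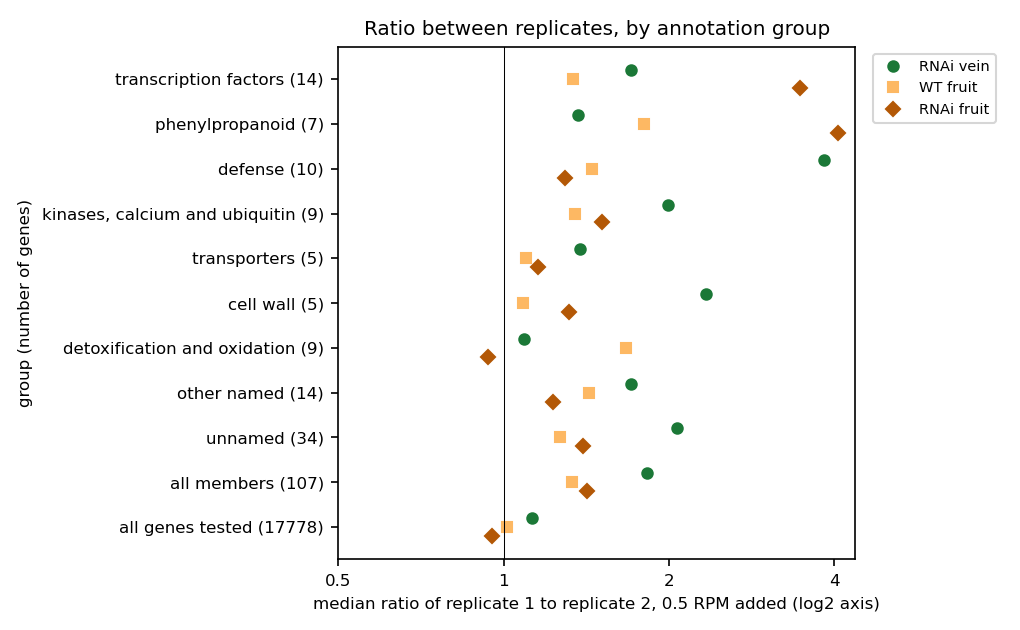
Median ratio of replicate 1 to replicate 2 in RNAi vein, WT fruit and RNAi fruit for each annotation group, with 0.5 RPM added and a log2 axis; the vertical line marks equal replicates. The median over all genes tested lies at 1.12 in RNAi vein and 0.951 in RNAi fruit, and the RNAi fruit medians of transcription factors (3.46) and phenylpropanoid enzymes (4.06) lie farthest to the right.

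At the limit of the rule, Csa1G542450, a bHLH gene, was just inside, with 0.0553 and 0.289 RPM in WT vein and 1.41 and 1.00 RPM in RNAi vein. Csa2G129170 and heat shock transcription factor B2A (Csa6G517310) were inside by their WT vein replicate 2, at 0.289 RPM each. Just outside lay a cysteine-rich receptor-like kinase gene (Csa6G515490) with 0.948 RPM in RNAi vein replicate 2, an aquaporin of the NOD26-like type (Csa4G007030) with 0.922 RPM in RNAi vein replicate 1, and a major facilitator gene (Csa6G424530) with 0.332 RPM in WT vein replicate 1. A difference of 1 or 2 reads decides on which side such genes fall.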

How the data were processed

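RNA from midveins and fruits was sequenced on an Illumina HiSeq instrument from directional paired-end libraries. TopHat was used by the authors for alignment to the cucumber genome and HTSeq for assigning reads to genes, and they deposited RPM values, the reads of a gene relative to the total of its library. Versions are not given in the sources used here. Values came out as whole reads in 100% of cases (tolerance 0.05 of a read).

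RPM values were transformed to log2(RPM + 0.5) and fitted with limma 3.58.1 in R 4.3.3 (trended empirical Bayes, two-sided), 8 libraries and 4 group means together. The test covered 17778 genes, those with 2 or more libraries at 1 RPM or above. A gene was called at adjusted p under 0.05 and at least 2-fold. A difference on this scale understates the change of low genes. The spread of a member rests partly on the vein libraries that chose it, so a fit to the fruit libraries alone was run as an alternative. With 2 libraries against 2, an exact permutation test cannot go below p = 0.333. P-values measure only the spread between these samples. On simulated data with 200 of 17778 genes changed 4-fold between RNAi and WT fruit, limma recovered 156 with 17 false calls. The exact test of edgeR recovered 177 with 93 false calls, and DESeq2 174 with 68. The changed genes were drawn from all genes above a minimum read count. In WT fruit the median gene had 25.2 and 24.7 RPM and the median member 0.683 and 0.305 RPM. The simulated vein libraries held no difference between the genotypes. Neither the recovery nor the false calls therefore describe the members.

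Alternatives were 2 other pseudocounts, other filters, TMM factors, the replicate number as a block, edgeR 4.0.16 and DESeq2 1.42.0 on recovered reads, other limits of the rule, and leaving out each library. Members and lists were chosen with earlier results of these data known. Named in the text were the 3 highest members of each annotation group in RNAi vein, those called in fruit, the 3 highest without reads in WT vein, the 3 widest and 3 closest replicate pairs, the 3 highest in WT fruit and the 3 genes on each side of the limit of the rule. Of 58 members named, 18 were added to these after their values were seen. Names come from the study's tables, since 0 of the gene IDs matched the 23999 RefSeq genes, so promoters and proteins were not analysed here.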

Additional observations from a re-analysis of the deposited data

Results flagged for a closer look

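3 members had opposite orders of the genotypes in the tissues: both RNAi libraries were above both WT libraries in vein, as the rule requires, and below both in fruit. In fruit this order was rarer among members (2.80%) than over all genes tested (23.4%), and none of the 3 genes was called. The difference between the tissues was not tested. Glutathione S-transferase TAU 8 (Csa4G304750) had a fruit difference of -0.61 on the log2(RPM + 0.5) scale. Nudix hydrolase 1 (Csa5G608210) had a fruit difference of -0.35. UDP-glucosyl transferase 73D1 (Csa6G448690) had a fruit difference of -1.01.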

How the results depend on the processing

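The count of 3 members called up in fruit, and of none called down, was the same with a pseudocount of 0.1 or 1, with no filter, with a filter on the fruit libraries and with TMM factors, and the same 3 genes were called. edgeR's quasi-likelihood test called 2, limma on the fruit libraries alone 10, DESeq2 30 and edgeR's exact test 43, and none called a member down. Over all genes, the exact test called 475 up and 86 down, DESeq2 326 and 36, limma on the fruit libraries alone 190 and 28, quasi-likelihood 59 and 6, and the main fit 75 and 9. Without 1 library the count of members ranged from 0 to 18, among 0 to 306 genes called up in all. With the replicate number as a block it was 0 (2 of all genes up). The labels do not say that a number marks a shared batch, and the fruit deviations of same-numbered libraries correlated at 0.143 over all genes and 0.0917 over members, and the vein deviations at -0.112 over all genes.

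The median fruit difference of members, 1.22, was 1.67 with a pseudocount of 0.1, 1.99 by quasi-likelihood, 1.99 by DESeq2 and 2.02 by the exact test, and ranged from 0.75 to 1.49 without 1 library. The number of genes meeting the rule was 40 with limits of 0.15 and 2 RPM, 174 with limits of 0.5 and 1 RPM, 161 by the means of the replicates, 89 with TMM factors, of which 88 were members, and 125 to 163 without 1 vein library. The mirrored rule with TMM factors, added after seeing the data, gave 6 genes. Members with both RNAi fruit libraries below both WT ones numbered 4 to 17 without 1 fruit library (all genes tested, 5581 to 8207), and those above 75 to 91 (5891 to 7401). Members at 1 RPM or more in 2 fruit libraries numbered 38 to 66 without 1 of them. Members meeting the cutoffs in fruit numbered 12 with limits of 0.5 and 1 RPM and 7 to 24 without 1 fruit library.

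Of 58 named members, 51 kept their direction in fruit under every alternative. Without 1 library, the difference ranged from -0.22 to 0.63 for Csa1G089490, from -2.87 to 0.15 for Csa3G105950, from -0.15 to 0.78 for Csa3G778230, from -2.19 to 0.18 for Csa4G304760, from -0.13 to 0.98 for Csa6G516780, from -0.10 to 0.13 for Csa6G325390 and from -0.41 to 0.29 for Csa7G072800. The cause of these shifts was not tested. WT vein and WT fruit values near 0.1 RPM rest on a few reads, so ratios to them are not resolved at this depth.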
